A study of Mus musculus with 6 samples.

Results

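Semaphorins, ephrins and their plexin and Eph receptors are the contact and gradient cues that steer growing axons and vessel sprouts. The genes described here are the protein-coding semaphorin, plexin, Eph receptor and ephrin genes of the mouse count table, chosen by their symbols, leaving out *Sema3g*, *Plxnd1*, *Ephb4* and *Efnb2*, which are known for their roles in arteries, veins and sprouting. The rule gave 47 of the 56748 genes listed: 19 semaphorins, 8 plexins, 13 Eph receptors and 7 ephrins. Their messages were measured by bulk RNA-Seq in endothelial cells (ECs) sorted from the spinal cords of mice at postnatal day 16, with 3 control mice and 3 TDP-43iΔEC mice and 1 library per mouse.

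TDP-43iΔEC mice carried floxed *Tardbp* alleles, whose loxP sites flank an exon of the gene for the RNA-binding protein TDP-43, and the tamoxifen-inducible Cdh5(PAC)-CreERT2 transgene, which is driven by the promoter of VE-cadherin and so acts in ECs. Control mice carried the floxed alleles without the Cre transgene. Both groups were of C57BL/6 background and received tamoxifen (1 mg/mL) once a day from postnatal day 5 to day 7, so that tamoxifen is shared by the groups and the presence of Cre is not. Each library was amplified from little RNA of sorted cells. In such bulk samples, fewer cells of a type and less RNA per cell cannot be told apart.

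Semaphorins are secreted or membrane-bound ligands that bind plexins, in the case of the secreted class together with the co-receptors neuropilin-1 and neuropilin-2, and plexins relay the signal by switching off small Ras and Rap GTPases. Ephrins are membrane-bound ligands: those of class A are held by a lipid anchor and those of class B cross the membrane, and both signal to Eph receptor tyrosine kinases on the neighboring cell, and back into their own cell. In vessels these families are best known for repelling or directing tip cells, for sorting arterial from venous cells, and for the tension between ECs and their matrix. TDP-43 is known to bind RNA rich in UG repeats, which stand in the gene as TG repeats on the coding strand.

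Normalized counts of *Tardbp* itself were 1973, 2282 and 2069 among control mice but 982, 600 and 433 among TDP-43iΔEC mice, where a normalized count is the deposited count divided by the size factor of its library. The groups did not overlap, with a log2 fold change of -1.62 (SE 0.41, limma, adjusted p = 0.287). Libraries held 25704871 to 47270654 counts and between 12972 and 16557 genes with a count. The shallowest were TDP-43iΔEC 3 (25704871 counts) and TDP-43iΔEC 2 (28228980), while every other library held at least 44041329. A pair of libraries stood apart from the rest in multidimensional scaling: control 2 on the first axis, which held 30.3% of the variation, and TDP-43iΔEC 1 on the second, which held 24.8%. The 5 EC markers (*Pecam1*, *Cdh5*, *Cldn5*, *Kdr* and *Tek*) were detected in every library, and their normalized counts summed to 282753 to 403387 per control mouse and 283758 to 348058 per TDP-43iΔEC mouse.

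Markers of other cells differed by group for red blood cells and astrocytes, and by library for the oligodendrocyte lineage. The 5 red blood cell markers summed to 255655 to 374365 normalized counts per control mouse and 74987 to 106124 per TDP-43iΔEC mouse, and 4 of them were lower at an adjusted limma p under 0.05. Cells were sorted with fluorescent antibodies, and those listed by the study beside anti-CD31, an EC marker, include TER-119, against erythroid cells, and CD45, against leukocytes, which such a gate would remove. Even so, the red blood cell marker sums of control mice came near those of the 5 EC markers (282753 to 403387). The 5 astrocyte markers summed to 8776 to 9293 per control mouse and 4731 to 6565 per TDP-43iΔEC mouse. *Gja1*, which ECs can also express, carried most of that sum, while *Aqp4* was at 0 in control 2 and in all 3 TDP-43iΔEC mice. The 6 oligodendrocyte lineage markers summed to 10562 to 20930 in control mice and to 17182, 2004 and 572 in TDP-43iΔEC 1, 2 and 3. Mural cell markers (6 genes) lay between 19323 and 33868 per control mouse and between 15389 and 36144 per TDP-43iΔEC mouse, and fibroblast markers (5 genes) between 1335 and 1566 and between 465 and 1478. Neuron markers summed to at most 240 normalized counts, with *Tubb3* at 0 in all libraries, and microglia markers to at most 299, with *Adgre1* at 0 in all libraries. The part of these cells in the values below was not tested.

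The stretches of genome that bear on the genes the comparison turns on are shown first. *Epha2* (GRCm39 chr4:141028540-141056695, plus strand), the gene of an Eph receptor of class A, holds 2 runs of at least 6 TG repeats on its coding strand. *Sema3c* (chr5:17779219-17935648, plus strand), the gene of a secreted semaphorin, holds 10 such runs, *Sema7a* (chr9:57847375-57870151, plus strand), the gene of a lipid-anchored semaphorin, holds 1, and *Efna1* (chr3:89179037-89188449, minus strand), the gene of the class A ligand ephrin-A1, holds 0. The longest run of each gene is given with 24 bases on either side, 5′ to 3′ on the coding strand, with the repeats in capitals, because TG repeats are the letters TDP-43 is known to favor. They lie in intron 1 of *Epha2* (chr4:141030569-141030678), intron 2 of *Sema3c* (chr5:17811870-17811965) and intron 7 of *Sema7a* (chr9:57863170-57863229), where introns are counted on the canonical transcript.
Epha2 intron 1: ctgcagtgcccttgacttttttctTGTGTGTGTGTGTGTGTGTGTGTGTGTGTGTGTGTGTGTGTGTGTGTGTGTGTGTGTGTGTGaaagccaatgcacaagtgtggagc
Sema3c intron 2: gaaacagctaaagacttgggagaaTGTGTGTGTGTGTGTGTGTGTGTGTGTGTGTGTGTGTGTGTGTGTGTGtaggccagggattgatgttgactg
Sema7a intron 7: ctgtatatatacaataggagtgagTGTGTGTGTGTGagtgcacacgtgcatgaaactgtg

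These runs are 31, 24 and 6 repeats long. Of the 22 guidance genes that could be tested, 16 (72.7%) held at least 1 run, against 71.9% of the 11334 protein-coding genes tested. The median density was 0.763 runs per 10 kb in the guidance genes and 0.729 in all protein-coding genes tested. The runs are letters in the genome, and binding of TDP-43 to them was not measured here.

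The 250 bases before the start of the canonical transcript of *Epha2* and of *Efna1* are shown as well, since this receptor and its ligand gave the lowest p-values. Capitals mark a TCF/LEF motif, searched as CTTTGAT or CTTTGAA on both strands. The windows are chr4:141028290-141028539 (plus strand) and chr3:89186955-89187204 (minus strand). The *Efna1* window lies inside the annotated gene, because a longer transcript starts further upstream.
Epha2 upstream: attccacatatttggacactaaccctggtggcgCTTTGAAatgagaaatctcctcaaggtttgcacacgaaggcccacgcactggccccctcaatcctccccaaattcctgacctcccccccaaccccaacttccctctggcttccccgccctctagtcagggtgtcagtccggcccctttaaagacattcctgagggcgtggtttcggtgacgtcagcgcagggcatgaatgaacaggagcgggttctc
Efna1 upstream: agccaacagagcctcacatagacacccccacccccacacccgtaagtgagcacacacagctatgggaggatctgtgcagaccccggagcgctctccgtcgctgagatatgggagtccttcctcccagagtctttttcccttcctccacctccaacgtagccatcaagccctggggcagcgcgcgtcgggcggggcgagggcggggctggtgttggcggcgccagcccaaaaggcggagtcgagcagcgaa

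The *Epha2* window holds 1 match and the *Efna1* window holds none. Matches stood in 3 of the 47 guidance gene windows (*Epha2*, *Sema3e* and *Plxna1*) and in 7.53% of the 21630 protein-coding windows of the same length. A match is a description of the letters, not a site.

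The first question was how much of the guidance system these ECs transcribed. Of the 47 genes, 15 had at least 10 counts in every library (31.9%, against 38.3% of the 21970 protein-coding genes), and each library held 17 to 23 of them at that level. Together the 47 genes took 0.0922% to 0.132% of the counts of a library. The lowest shares were those of TDP-43iΔEC 2 (0.0922%) and TDP-43iΔEC 3 (0.0969%), the shallowest libraries. A total of 22 genes passed the filter on low counts and were tested: 5 of 7 ephrins, 3 of 13 Eph receptors, 9 of 19 semaphorins and 5 of 8 plexins. The filter keeps a gene that is high in 1 group alone, so these 22 are not a picture of all 47.

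Of the 13 Eph receptors, 6 did not reach 10 counts in any library. *Epha6*, *Epha8* and *Ephb2*, the ephrins *Efna2* and *Efna5*, the plexin *Plxna3* and the semaphorins *Sema3d*, *Sema3e*, *Sema4a* and *Sema5b* had 0 counts in all 6 libraries. A count of 0 allows up to 3 counts, which is 2.27 to 4.26 normalized counts depending on the library, and this limit covers counting error only. *Epha5*, *Epha10*, *Ephb6*, *Plxnc1* and *Sema4f* had at most 9 counts in any library. *Plxnc1*, the plexin that binds semaphorin 7A, thus had almost no counts in libraries where *Sema7a* was among the highest genes. The map of deposited counts shows these rows as dark bands.

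**Figure D1:**
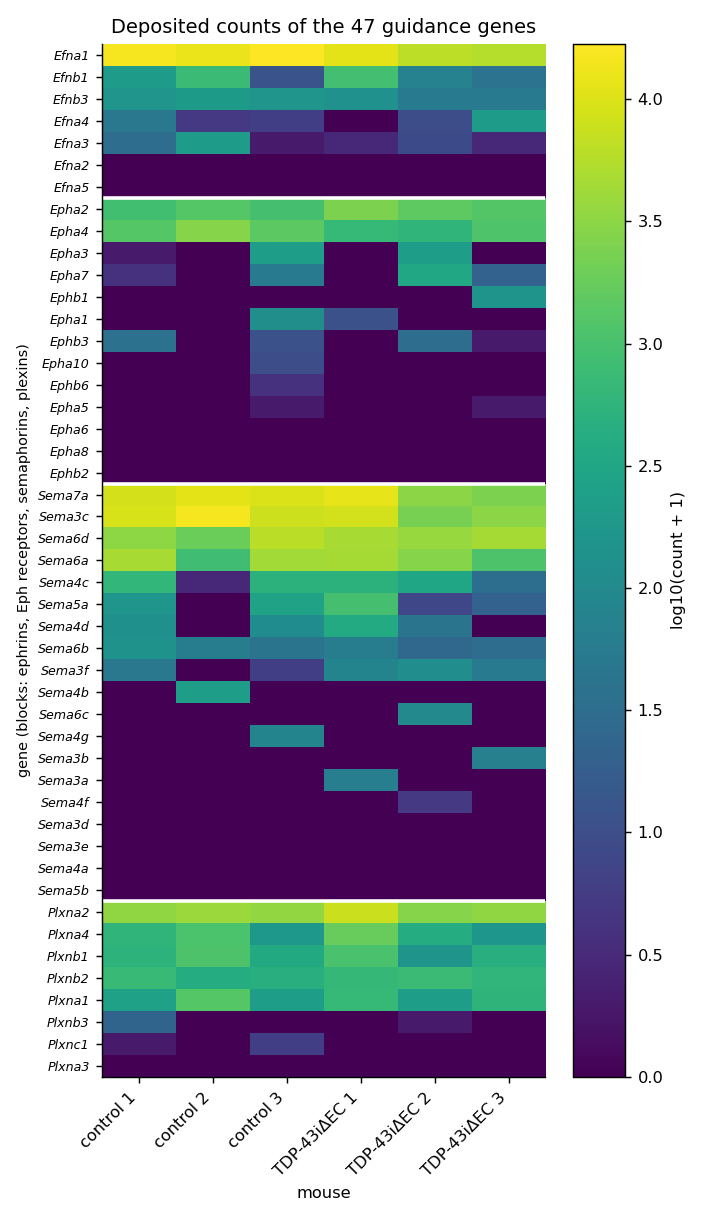
Deposited counts of the 47 guidance genes (rows, in blocks by family and sorted by total count) in the 6 mice (columns), colored by log10(count + 1). The top rows of each family are bright in all 6 mice, while 10 rows are at 0 throughout and others light up in a single mouse.

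Some genes reached 10 counts in 1 mouse and no other. *Ephb1* had 150 counts and *Sema3b* 68 counts in TDP-43iΔEC 3, *Sema6c* had 97 counts in TDP-43iΔEC 2, *Sema3a* had 64 counts in TDP-43iΔEC 1, *Sema4b* had 234 counts in control 2, *Sema4g* had 81 counts in control 3 and *Plxnb3* had 22 counts in control 1. These 7 genes are 21.9% of the 32 guidance genes that reached 10 counts anywhere, against 9.60% of the protein-coding genes that did so. Of the 7, 3 did so in a control mouse and 4 in a TDP-43iΔEC mouse. The remaining untested receptors were *Epha1* (120 counts in control 3 and 10 in TDP-43iΔEC 1), *Epha3* (233 counts in control 3 and 227 in TDP-43iΔEC 2) and *Ephb3* (at most 37 counts). These libraries carry no molecular identifiers, so a count is a read fragment and not a molecule.

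To compare levels between genes, normalized counts were divided by the merged exon length of each gene. In control mice *Efna1* stood first with 3594 ± 349 normalized counts per kilobase (SD, n = 3), followed by *Sema7a* with 2551 ± 385 and *Sema3c* with 1112 ± 413. The ranges of these 3 genes over the control mice did not overlap with each other or with the next gene. *Sema6a* (288 ± 183), *Sema6d* (272 ± 149), *Epha4* (194 ± 102), *Epha2* (187 ± 47.3) and *Plxna2* (177 ± 21.9) came next, and each overlapped with its neighbor in the order. *Efnb1*, *Plxnb2*, *Sema4c*, *Plxnb1*, *Efnb3*, *Plxna4* and *Plxna1* had means of 33.4 to 73.4 normalized counts per kilobase and could not be ordered by their ranges. In 3 families a single gene held the largest share on average: *Efna1* held 95.8% ± 3.72 of the ephrin level of control mice, *Sema7a* 59.0% ± 2.62 of the semaphorin level and *Plxna2* 53.3% ± 10.6 of the plexin level (SD, n = 3), where control 2 was lowest at 43.7%. Among the Eph receptors *Epha2* (47.9% ± 5.16) and *Epha4* (46.9% ± 8.66) held similar shares.

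The comparison of TDP-43iΔEC with control mice asks which of these cues changed when ECs lost TDP-43. No guidance gene passed an adjusted p of 0.05 in the limma fit, against 18 of the 13107 genes tested (0.137%), and the lowest adjusted p was 0.311. At an unadjusted p under 0.05, 3 of the 22 genes remained: *Efna1* and *Sema3c*, which were lower in TDP-43iΔEC mice, and *Epha2*, which was higher. This is 13.6% of the genes, against 9.27% of all genes tested, of which 4.26% were higher and 5% lower. By edgeR 0 genes passed the adjusted p and the same 3 had an unadjusted p under 0.05, as did 848 of the 13107 genes tested. By DESeq2 *Efna1* passed with an adjusted p of 0.0237, where 247 of 12916 genes passed (1.91%).

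In 5 of the 22 genes (22.7%) the 3 TDP-43iΔEC mice lay all above or all below the 3 control mice, against 15.3% of all genes tested, 7.4% higher and 7.93% lower. *Epha2* and *Sema3f* were higher and *Efna1*, *Sema3c* and *Efnb3* lower. *Sema3f* reached 10 counts in all 3 TDP-43iΔEC mice but only in control 1 among control mice, so it passed the filter through its higher group. With at least 10 counts required in every library it dropped out, and 4 of 15 genes did not overlap. The share over all genes was not computed at that filter. For each of the 5 genes the exact permutation test gave its smallest possible 2-sided p of 0.1. Groups of 3 that do not overlap always give this value, so it adds nothing to the count. The median log2 fold change of the 22 genes was 0.48, against -0.02 over all genes tested, with 14 values above 0 and 8 below. This median had no stable sign: it was -0.59 without control 2, -0.12 without control 3 and -0.08 without TDP-43iΔEC 1. In the plot of the fold changes the standard errors run from 0.17 for *Efna1* to 3.19 for *Epha7*.

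**Figure D2:**
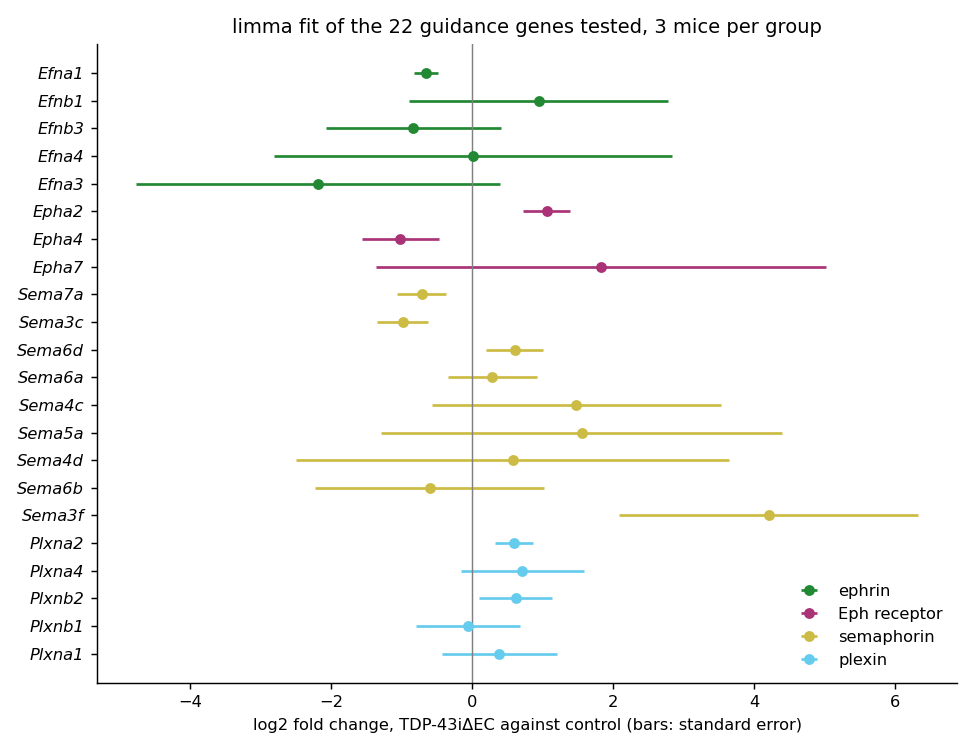
Log2 fold change of TDP-43iΔEC against control mice (horizontal axis) for the 22 guidance genes tested, with bars of 1 standard error from the limma fit, colored by family. *Efna1* has the shortest bar at -0.65, *Epha2* lies at 1.06, and the bars of the genes with few counts, such as *Epha7* and *Efna3*, span several log2 units.

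Among the ephrins, *Efna1* was the gene with the least spread. Ephrin-A1, a ligand of EphA2 that was first known as a product of cytokine-stimulated ECs, gave 12077, 11295 and 13645 normalized counts across the control animals. TDP-43iΔEC animals gave 8550, 7486 and 7998. The lowest control mouse was above the highest TDP-43iΔEC mouse, with group means of 12339 ± 1197 and 8011 ± 532 (SD, n = 3). The log2 fold change was -0.65 (SE 0.17, limma, adjusted p = 0.311). *Efna1* kept its sign and an unadjusted p under 0.05 in all 15 other settings, with log2 fold changes between -0.74 and -0.46. The exons of *Efna1* overlap no other annotated gene. The red blood cell and astrocyte markers were lower in the same 3 mice, and their part in this value was not tested.

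*Efnb3*, a class B ephrin, was low: 134, 175 and 129 normalized counts per control mouse, and 103, 63.2 and 80.9 per TDP-43iΔEC mouse. The groups did not overlap, but at these levels the log2 fold change of -0.83 had an SE of 1.24 (limma, adjusted p = 0.845). *Efnb1*, another class B ephrin, spanned 8.93 to 687 normalized counts among control mice and 55.3 to 688 among TDP-43iΔEC mice. *Efna3* and *Efna4* reached 10 counts in 2 libraries each. Summed per kilobase, the ephrins came to 3636, 3588 and 4016 per control mouse and 2693, 2231 and 2549 per TDP-43iΔEC mouse, and the groups did not overlap. *Efna1* made up 91.4% to 99.0% of these sums in every mouse, so the sum carries little beyond that gene.

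Among the receptors, *Epha2* encodes a high-affinity receptor of ephrin-A1. It stood at 721, 1130 and 777 normalized counts among control mice, and at 1899, 1788 and 1789 among TDP-43iΔEC mice. The 3 TDP-43iΔEC mice lay close together and all above the highest control mouse. Group means came to 876 ± 222 and 1825 ± 63.5 (SD, n = 3), a 2.09-fold difference in the fit and a log2 fold change of 1.06 (SE 0.33, limma, adjusted p = 0.393). The log2 fold change lay between 0.94 and 1.25 in the 15 other settings, and the unadjusted p went above 0.05 only without control 1. About 8.54% of the exon length of *Epha2* overlaps the gene *Gm69991* on the opposite strand, and the counting did not use strand.

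*Epha4*, a receptor that binds ephrins of both classes and is well known in axon guidance of the spinal cord, gave 1059, 2570 and 1161 normalized counts among control mice. Among TDP-43iΔEC mice it gave 513, 681 and 1619. The groups overlapped through TDP-43iΔEC 3, and the log2 fold change of -1.01 (SE 0.54, limma, adjusted p = 0.583) was -0.57 without TDP-43iΔEC 1 and -0.62 without control 2. *Epha7* reached at most 42.2 normalized counts among control mice and 384 among TDP-43iΔEC mice, where the highest value came from TDP-43iΔEC 2 alone.

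The makeup of the Eph receptors was then compared within each mouse. *Epha2* held 53.6%, 43.6% and 46.4% of the summed Eph level per kilobase in the control animals and 86.3%, 72.2% and 62.5% in the TDP-43iΔEC animals. *Epha4* held 44.7%, 56.4% and 39.5% against 13.3%, 15.6% and 32.1%. Neither share overlapped between the groups. The 2 receptors made up most of the Eph level in every mouse, so their shares are tied to each other and are not separate results. The normalized counts of *Epha4* itself overlapped, and the shares were not tested. In control mice the 2 receptors stood at about the same level per kilobase of all exons, but *Epha4* stood above *Epha2* when the mean transcript length was used instead (65.7% against 29.1%), so their order depends on the length chosen. The ratio of *Efna1* to *Epha2* per kilobase, which was looked at after their values were known, was 22.9, 13.6 and 24.0 among control mice and 6.15, 5.71 and 6.10 among TDP-43iΔEC mice. It is a description of values already given and was not tested.

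**Figure D3:**
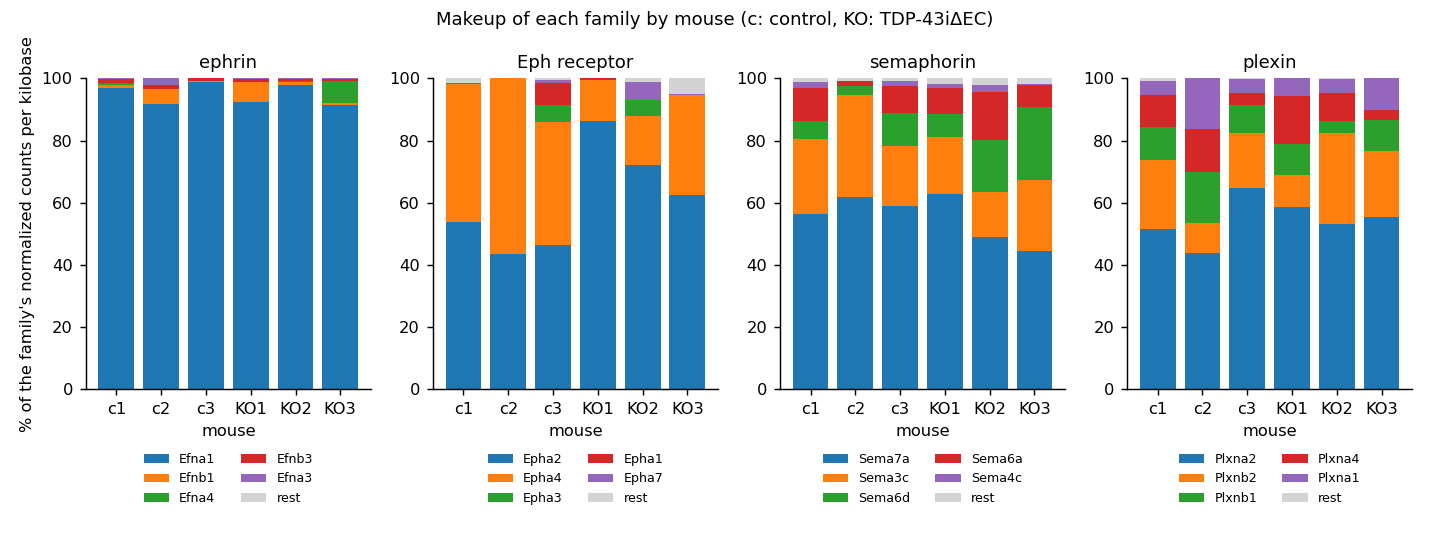
Share of each family's normalized counts per kilobase held by its 5 highest genes and by the rest (vertical axis, percent) in control mice (c1 to c3) and TDP-43iΔEC mice (KO1 to KO3). *Efna1* fills over 90% of every ephrin bar, and the *Epha2* part of the Eph receptor bars goes from at most 53.6% in control mice to at least 62.5% in TDP-43iΔEC mice.

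Among the semaphorins, *Sema3c* and *Sema7a* made up most of the level. Semaphorin 3C, a secreted ligand that signals through neuropilins with plexins of class A and plexin-D1, gave 7712, 12928 and 6604 normalized counts among control mice. Its counts among TDP-43iΔEC mice were 6547, 2763 and 4406. All 3 lay below the lowest control mouse, though TDP-43iΔEC 1 did so by a small margin (6547 against 6604). The log2 fold change was -0.99 (SE 0.36, limma, adjusted p = 0.471). The unadjusted p went above 0.05 without control 2 (log2 fold change -0.74), without TDP-43iΔEC 2 (-0.67) and without TDP-43iΔEC 3 (-0.96), and with the libraries scaled by their totals or by EC markers. Its direction was the same in all 15 settings, between -1.38 and -0.67.

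*Sema7a*, whose product acts through integrins and plexin-C1, gave 7382, 9880 and 8151 normalized counts among control mice and 9006, 3716 and 3436 among TDP-43iΔEC mice. TDP-43iΔEC 1 was within the control range and the other 2 were below it. With all mice the log2 fold change was -0.72 (SE 0.34, limma, adjusted p = 0.558). Without TDP-43iΔEC 1, the library that stood apart on the second axis, it was -1.27 with an unadjusted p under 0.05 and an adjusted p of 0.440. Without TDP-43iΔEC 2 or TDP-43iΔEC 3 it was -0.49 and -0.47. In oligodendrocyte lineage markers too, TDP-43iΔEC 1 was in the control range and the other 2 below it, and their part in this value was not tested. Depth split the same way, with 45010088 counts in TDP-43iΔEC 1 against 28228980 and 25704871 in TDP-43iΔEC 2 and 3. The part of depth was not tested either.

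The transmembrane semaphorins of class 6, which bind plexins of class A, varied more between mice. *Sema6d* gave 2706, 1687 and 5037 normalized counts among control mice and 3602, 4390 and 6333 among TDP-43iΔEC mice, with a log2 fold change of 0.61 (SE 0.40, limma, adjusted p = 0.640) that was 0.22 without control 2 and 1.03 without control 3. *Sema6a* gave 3983, 752 and 3503 against 3454, 3394 and 1558. Control 2 was the lowest of the 6 mice. The log2 fold change was 0.29 (SE 0.63) with all mice and -0.50 without control 2, and it was also below 0 by edgeR (-0.022), with sample quality weights (-0.33) and with the replicate block (-0.011). *Sema6b* ranged from 31.0 to 117 normalized counts over the 6 mice.

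**Figure D4:**
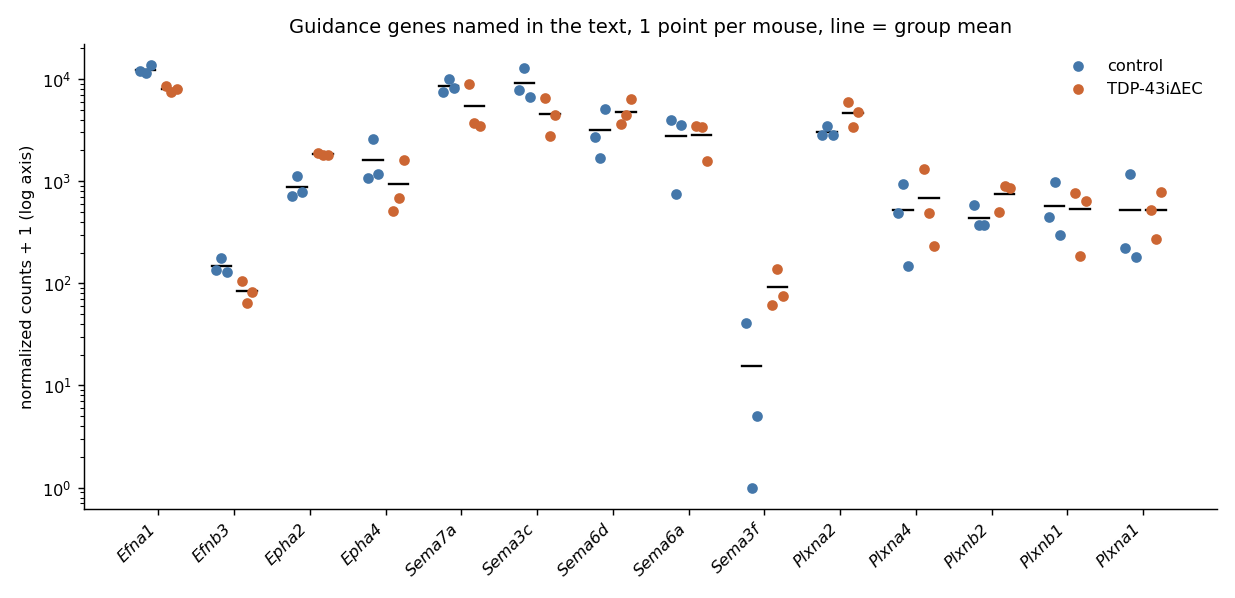
Normalized counts + 1 (vertical log axis) of the 14 guidance genes named with a value in every mouse, 1 point per mouse, with the 3 control mice at left and the 3 TDP-43iΔEC mice at right of each gene and a line at each group mean. The points of *Efna1*, *Efnb3*, *Epha2*, *Sema3c* and *Sema3f* do not overlap between groups, and those of the other 9 genes do.

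*Sema3f*, a secreted semaphorin that binds neuropilin-2, had few counts: 39.9, 0 and 4.06 normalized counts among control mice, and 59.9, 138 and 73.8 among TDP-43iΔEC mice. The groups did not overlap, but the fitted log2 fold change of 4.21 (SE 2.12, limma, adjusted p = 0.567) rests on a control mouse at 0 and ran from 2.55 without control 2 to 5.83 without control 1. The means were 14.7 ± 22.0 and 90.7 ± 41.9 normalized counts (SD, n = 3). *Sema4c*, *Sema4d* and *Sema5a* were at 1.78, 0 and 0 normalized counts in control 2 and between 90.1 and 513 in the other 2 control mice. In TDP-43iΔEC mice these 3 genes ranged from 0 to 719. The 8 tested genes that are not named with every mouse had standard errors of 1.62 to 3.19 on the log2 scale and adjusted p-values of 0.805 to 0.999.

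*Plxna2* was the highest plexin. Plexin-A2 is a receptor of class 6 semaphorins and, with neuropilins, of class 3 semaphorins. Control mice had 2827, 3479 and 2824 normalized counts of it and TDP-43iΔEC mice 5901, 3414 and 4721, of which TDP-43iΔEC 2 lay within the control range. The log2 fold change was 0.59 (SE 0.27, limma, adjusted p = 0.545). It was 0.35 without TDP-43iΔEC 1 and 0.80 without TDP-43iΔEC 2, where the unadjusted p was under 0.05. The unadjusted p was also under 0.05 by DESeq2 (log2 fold change 0.62), with DESeq2 size factors in voom (0.63) and with the libraries scaled by their totals (0.78) or by EC markers (0.75), 5 of the 15 other settings in all. Genes on the opposite strand overlap 16.8% of its exon length.

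*Plxnb2*, the gene of a plexin that binds class 4 semaphorins, gave 577, 369 and 368 normalized counts among control mice and 501, 891 and 860 among TDP-43iΔEC mice, a log2 fold change of 0.62 (SE 0.52, limma, adjusted p = 0.706). *Plxna1*, a receptor of class 3 and class 6 semaphorins, gave 219, 1168 and 179 against 516, 267 and 788, with a log2 fold change of 0.39 (SE 0.82). *Plxna4*, a related receptor, gave 482, 940 and 146 against 1313, 490 and 233, with a log2 fold change of 0.72 (SE 0.87). Each of these genes spanned more within a group than between the group means, and both changed sign when control 3 was left out. *Plxnb1*, the receptor of semaphorin 4D, gave 443, 985 and 297 against 770, 185 and 631, with a log2 fold change of -0.06 (SE 0.73) that turned positive when libraries were scaled by their totals (0.15) or by EC markers (0.09). Summed per kilobase, the plexins came to 345 ± 107 in the control group and 485 ± 107 in the TDP-43iΔEC group (SD, n = 3), and the ranges overlapped.

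**Figure D5:**
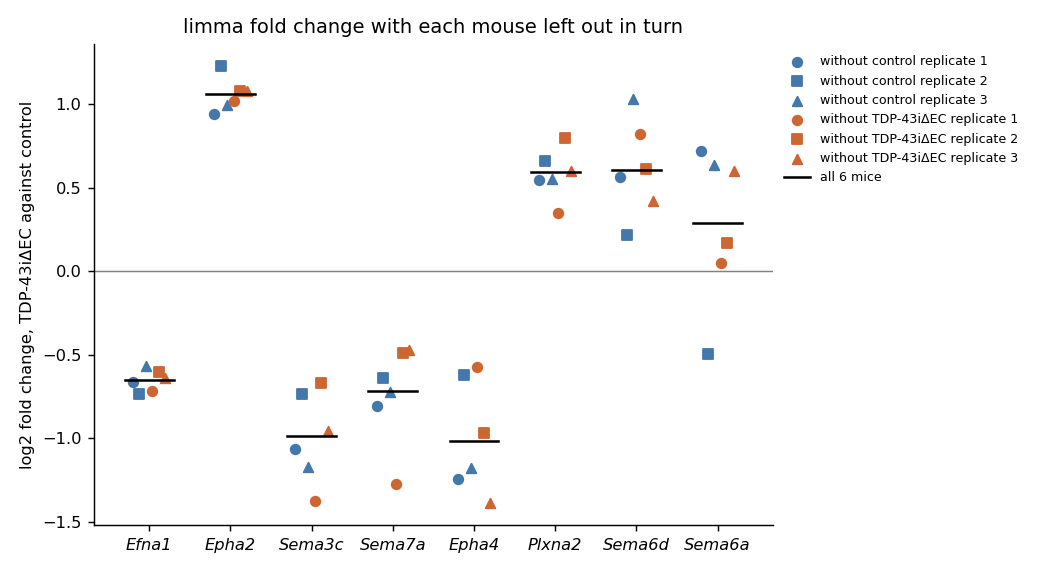
Log2 fold change of TDP-43iΔEC against control mice (vertical axis) for 8 guidance genes with all 6 mice (black line) and with each mouse left out in turn (points). *Efna1* stays between -0.74 and -0.57 and *Epha2* between 0.94 and 1.23, while *Sema6a* goes from 0.72 to -0.50.

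The partners of these receptors were examined through 4 lists of co-receptors, plexin effectors, Eph and ephrin effectors and other guidance families. Neuropilin-1, encoded by *Nrp1*, was abundant, with 16526, 12871 and 12689 normalized counts among control mice and 14549, 14244 and 15047 among TDP-43iΔEC mice, and with a log2 fold change of 0.03 (SE 0.16). *Nrp2* spanned 134 to 1195 among control mice and 700 to 1395 among TDP-43iΔEC mice, a log2 fold change of 0.64 (SE 0.79). Of the 94 genes listed, 68 were tested and 0 passed the adjusted p by limma or by edgeR. By DESeq2 1 of the 68 passed, *Itsn1*, where 247 of 12916 genes passed (1.91%). At an unadjusted p under 0.05 there were 11 (16.2%), of which 5 were higher and 6 lower, against 9.27% of all genes tested. The median log2 fold change of the 68 genes was -0.04, and 32 values were above 0 and 36 below. By list, the unadjusted p was under 0.05 in 1 of 7 co-receptors, 4 of 25 plexin effectors, 5 of 25 Eph and ephrin effectors and 1 of 11 genes of other guidance families.

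The 5 partners with the lowest p-values came from the effector lists. *Adam10*, a metalloprotease known to cut ephrins from the cell surface, gave 14086, 18924 and 15075 normalized counts among control mice and 12380, 10732 and 10423 among TDP-43iΔEC mice (log2 fold change -0.53, SE 0.17, limma, adjusted p = 0.402). *Rap1a*, one of the GTPases that plexins switch off, gave 1575, 1643 and 1010 against 2764, 2969 and 2275 (log2 fold change 0.93, SE 0.30, adjusted p = 0.420). *Itsn1*, an exchange factor for Cdc42 that works with EphB receptors, gave 947, 1456 and 1085 against 252, 367 and 246 (log2 fold change -2.08, SE 0.62, adjusted p = 0.361). In these 3 genes the groups did not overlap, as in 15 of the 68 partners tested (22.1%), against 15.3% of all genes tested. They were picked by low p-values in the same data, so their lack of overlap is not a separate result. *Dpysl3*, a collapsin response mediator of the semaphorin pathway, gave 34.9, 0 and 8.12 against 433, 485 and 281, also without overlap. Its fitted log2 fold change of 6.27 (SE 1.84, adjusted p = 0.360) rests on control mice at or near 0. Like *Sema3f*, *Dpysl3* passed the filter through its higher group, so its lack of overlap is not a separate result. *Sdcbp*, encoding the adaptor syntenin that binds class B ephrins, gave 18200, 21089 and 18521 against 31723, 35438 and 20259, where TDP-43iΔEC 3 lay within the control range.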

How the data were processed

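Bulk RNA-Seq libraries of sorted spinal cord ECs from 3 control and 3 TDP-43iΔEC mice were analyzed. The authors aligned the reads with STAR 2.7.8a to GRCm39 and deposited estimated counts per gene from RSEM 1.3.0, which were whole numbers in the table and not strand-aware. From these, genes were filtered with filterByExpr in edgeR 4.0.16, scaled by TMM and tested with voom in limma 3.58.1 (R 4.3.3). Adjustment was by Benjamini-Hochberg over 13107 genes with a threshold of 0.05. The study also used limma with voom at this threshold, but its methods name no filter or scaling. It reported more genes with altered expression than the 18 that passed here. Normalized counts used DESeq2 1.42.0 size factors. "Groups do not overlap" was judged on TMM-scaled counts. Levels per kilobase used merged exon lengths of GENCODE M39 (47 of 47 guidance genes matched by identifier). At most 2.48% of the 51-base stretches of a guidance gene's transcripts also occurred in another gene.

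Guidance genes were named with every mouse if they had a mean of at least 500 normalized counts, an unadjusted p under 0.05, or groups without overlap at a mean of at least 50. Other genes named were *Nrp1*, *Nrp2*, *Tardbp*, the 4 genes the rule leaves out and the 5 partners with the lowest p. The genes, lists and rules were chosen with earlier results of these data known. The fit was tested on simulated data. Alternatives were edgeR, DESeq2, other scalings and filters, sample quality weights, a replicate block and leaving out each mouse. The limma p-values set the group difference against the spread between 3 mice per group, which limma moderates over all genes tested. With 3 against 3 no exact permutation p can go below 0.1. Libraries of 25704871 to 47270654 counts set the depth, and limits on 0 counts cover counting error only.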

Additional observations from a re-analysis of the deposited data

How the results depend on the processing

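No guidance gene passed the adjusted p by limma in any setting, with 0 also at an adjusted p under 0.1, by edgeR and with each mouse left out. By DESeq2 the count was 1 (*Efna1*). Over all genes the count was 18 by limma, 0 by edgeR (848 at an unadjusted p under 0.05), 247 by DESeq2, 10 with libraries scaled by totals or by EC markers, 76 without a filter, 39 with at least 10 counts in every library and 0 to 13 with a mouse left out. The number of guidance genes with an unadjusted p under 0.05 was 2 to 4 in all 15 settings. Of 22 tested it was 3 by edgeR (848 of 13107 over all genes), 4 by DESeq2 (1113) and 3 with library totals (1295). It was 3 of 15 with at least 10 counts in every library (1002 of 8982) and 3 of 37 without a filter (1722 of 21324). With a mouse left out it was 2 to 4 of 23 to 25, against 960 of 14210 to 1316 of 14381 over all genes. The number without overlap was 6 to 9 of the 23 to 25 guidance genes tested with a mouse left out. Groups separate more easily with fewer mice, and the share over all genes was not computed there. These counts therefore cannot be read as a rise. The median log2 fold change of the tested guidance genes was -0.016 by edgeR, 0.016 by DESeq2, -0.14 with sample quality weights and -0.59 to 0.56 with a mouse left out. The median over all genes was 0.18 with library totals, 0.14 with EC marker scaling and -0.17 without control 2.

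Signs turned for 4 named genes. *Plxna1* was -0.0093 by edgeR, -0.12 with the replicate block and -0.12 to 1.19 with a mouse left out. *Plxna4* was -0.21 to 1.20 with a mouse left out. *Plxnb1* was 0.15 with library totals, 0.087 with EC marker scaling, 0.048 with quality weights, 0.041 with the replicate block and -0.71 to 0.48 with a mouse left out. *Sema6a* was -0.022 by edgeR, -0.33 with quality weights, -0.011 with the replicate block and -0.50 to 0.72 with a mouse left out. The causes were not tested. The other 10 named genes kept their sign in the settings run for them, which for *Sema3f* do not include the filter of 10 counts in every library, where it has no value. By mean transcript length the control shares were 55.9% for *Sema7a*, 29.1% for *Epha2* and 65.7% for *Epha4*.

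Deviations of same-numbered mice from their group means correlated at -0.07, -0.13 and -0.02, and those of differently numbered mice at -0.04 to 0.12. With 3 mice per group these values cannot decide whether samples are paired, and the labels give no pairing. With the replicate block 0 guidance genes passed the adjusted p (22 genes in all), and their median log2 fold change was 0.26. An unadjusted p under 0.05 was found in 3 (*Efna1*, *Epha2* and *Sema3c*), against 947 of the 13107 genes tested.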

Other observations

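The 4 genes left out of the set by its rule are the best known vascular members of these families. *Ephb4*, the venous receptor, gave 1728, 1686 and 1620 normalized counts among control mice and 1825, 1941 and 3518 among TDP-43iΔEC mice. The groups did not overlap, and the log2 fold change was 0.36 (SE 0.32, limma, adjusted p = 0.722). *Efnb2*, its arterial ligand, gave 637, 427 and 614 against 422, 490 and 172 (log2 fold change -0.64, SE 0.64). *Plxnd1* had means of 4081 ± 944 and 3414 ± 824 and *Sema3g* of 780 ± 241 and 639 ± 201 normalized counts (SD, n = 3), with overlapping groups.

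Other motifs in the upstream windows were AP-1 (TGAGTCA or TGACTCA, both strands), found in 1 of the 47 windows (*Sema4c*) against 4.03% of all windows, and ETS (CCGGAAG, both strands), found in 2 (*Sema4b* and *Plxnb1*) against 6.87%.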
